A study of Mus musculus with 10 samples.

Results

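Immune checkpoint genes encode the receptors and ligands that dampen T cell responses. Described here are 10 of them, chosen by name among 55487 genes measured in primary pancreatic tumours of KPF mice: the ligands Cd274 (PD-L1), Pdcd1lg2 (PD-L2), Lgals9 (galectin-9) and Cd276 (B7-H3), the receptors Pdcd1 (PD-1), Ctla4, Lag3, Havcr2 (TIM-3) and Tigit, and Vsir (VISTA), which has been described as both ligand and receptor. All 10 have a row in the table. KPF is a mouse model of pancreatic cancer, kept here on the C57BL/6J background, and polyadenylated RNA of 10 tumours was sequenced. Of these, 5 are labelled Grem1wt/wt, from mice given the peanut oil vehicle, and 5 are labelled Grem1∆/∆, from mice given tamoxifen at 100 mg/kg. Both treatments were given once a day for 5 days at 5 weeks of age, mice were used at 6 to 12 weeks, and the tumours are described as biological replicates. Deletion of Grem1, which encodes a secreted antagonist of bone morphogenetic proteins, and tamoxifen went together in every animal, so the effects of the 2 cannot be told apart. The labels do not name the recombinase, nor the cell type that it acts in.

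PD-1 is displayed by activated T cells and lowers signalling through the T cell receptor when it binds PD-L1 or PD-L2 on tumour cells, macrophages and dendritic cells. CTLA-4 competes with the co-stimulatory receptor CD28 for CD80 and CD86, and TIGIT competes with CD226 for the poliovirus receptor and nectins. LAG-3 binds class II molecules and FGL1, TIM-3 has galectin-9 among its reported ligands, and VISTA is abundant on myeloid cells. Interferon is a textbook inducer of PD-L1.

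Libraries held 10159891 to 18571519 estimated counts. Grem1 did not check the labels: it ran from 3.97 to 43.1 CPM (read counts scaled to library size) in wild-type tumours and from 6.83 to 110.1 CPM in those labelled deleted, so the groups are named by their labels. The labels call the material bulk tumour tissue, while the protocol for RNA extraction mentions sorting of cells. Markers of epithelium, fibroblasts, endothelium and leukocytes were above 0 in every library. Labelled-deleted tumour 1 stood apart, with the lowest summed epithelial (1400 CPM against 3523 to 4402 CPM in wild-type tumours), macrophage, dendritic and fibroblast markers and the highest interferon response markers (2728 CPM against at most 930.3 CPM in wild-type tumours). The interferon list also holds the receptor and kinase genes Ifngr1, Ifngr2, Jak1 and Jak2. Their wild-type means were 160, 78.0, 214 and 102 CPM, a large part of the wild-type sums. Labelled-deleted tumour 2 held 1540 CPM of intestinal epithelial markers, against at most 2.67 CPM in wild-type tumours. Values without one or both are given beside results on the checkpoint genes and the lists that these libraries moved most. The count column of labelled-deleted tumour 1 lacks a number that its title carries, and was matched to it by the remaining characters, which no other title shares. The titles also hold a number whose meaning is not stated: 36 is shared by wild-type tumour 1 and labelled-deleted tumour 2, 38 by wild-type tumours 2 and 3 and labelled-deleted tumour 3, and 40 by wild-type tumours 4 and 5 and labelled-deleted tumour 5.

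The start regions of 3 ligand genes are shown because interferon is known to induce such ligands and interferon response genes varied widely between these tumours. Cd274 lies on the plus strand of chromosome 19 (29367455 to 29388095) in build GRCm38 (mm10), and Pdcd1lg2 (29410919 to 29471161) follows on the same strand after 22823 bases. Lgals9 lies on the minus strand of chromosome 11 (78962974 to 78984946). Each sequence runs 5′ to 3′ on the gene's strand from 250 bases before to 50 bases after the RefSeq start (build GRCm38.p6), at chr19:29367188-29367487, chr19:29410669-29410968 and chr11:78984875-78985174. Capitals mark matches on either strand to the interferon regulatory factor core AANNGAAA or to the longer interferon-stimulated response element (GAAA, any 2 bases, then GAAA), which contains that core.
Cd274: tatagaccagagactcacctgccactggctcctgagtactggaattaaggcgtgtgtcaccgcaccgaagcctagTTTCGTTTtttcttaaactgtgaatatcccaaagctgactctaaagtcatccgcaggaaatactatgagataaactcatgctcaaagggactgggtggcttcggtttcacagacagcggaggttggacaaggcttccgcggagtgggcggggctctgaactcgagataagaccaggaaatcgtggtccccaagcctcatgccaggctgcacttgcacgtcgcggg
Pdcd1lg2: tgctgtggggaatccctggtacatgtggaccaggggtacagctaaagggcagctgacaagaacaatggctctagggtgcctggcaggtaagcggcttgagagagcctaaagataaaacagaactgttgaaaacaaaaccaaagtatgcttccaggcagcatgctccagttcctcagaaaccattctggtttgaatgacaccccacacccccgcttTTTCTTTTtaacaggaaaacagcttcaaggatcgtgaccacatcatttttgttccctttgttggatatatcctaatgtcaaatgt
Lgals9: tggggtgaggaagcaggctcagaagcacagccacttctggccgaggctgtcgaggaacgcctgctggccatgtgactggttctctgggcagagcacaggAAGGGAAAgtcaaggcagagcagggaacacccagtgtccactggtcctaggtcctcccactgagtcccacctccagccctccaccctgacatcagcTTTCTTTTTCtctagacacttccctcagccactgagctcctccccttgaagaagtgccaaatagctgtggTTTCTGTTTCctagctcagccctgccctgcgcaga
The core was found once in the Cd274 window, with its first base at -175 from the start, once in that of Pdcd1lg2 at -35, once in that of Pdcd1 at -28, and at 3 places in that of Lgals9. RefSeq start windows were matched for 9 of the 10 genes, and 4 of these held the core, which 23.9% of all 32851 start windows of this length hold. Only the Lgals9 window among the 9 held the longer element, at -55 and at 16, and 3.44% of all windows hold it. The gamma-activated site TTCNNNGAA was in 0 of the 9 windows and in 8.30% of all, and the AP-1 motif TGANTCA was in 1 of the 9, that of Havcr2, and in 7.81% of all. These matches describe letters in a short window and show no binding.

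Expression of the 10 genes covered more than 2 orders of magnitude once divided by length. On the scale of CPM per kilobase of exon, Lgals9 was highest at 59.7 ± 8.63 (SD, n = 10), followed by Cd276 at 24.5 ± 4.34 and Vsir at 21.1 ± 4.85. Lgals9 was higher per kilobase than Cd276 in all 10 tumours, and their ranges did not meet. Cd276 was higher than Vsir in 8 of 10 tumours, so that pair was not separated beyond the spread between tumours. After a gap to Cd274, which was lower than Vsir in all 10 tumours at 5.07 ± 1.27, came Havcr2 at 3.98 ± 0.706, Tigit at 2.81 ± 1.05, Pdcd1lg2 at 2.40 ± 1.59 and Lag3 at 2.12 ± 1.08. The levels of these 5 neighbours overlapped. Lag3 was above Ctla4 in all 10 tumours, although their ranges met. Ctla4 at 0.445 ± 0.389 and Pdcd1 at 0.424 ± 0.335 were lowest, and either was above the other in 5 of 10 tumours.

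**Figure D1:**
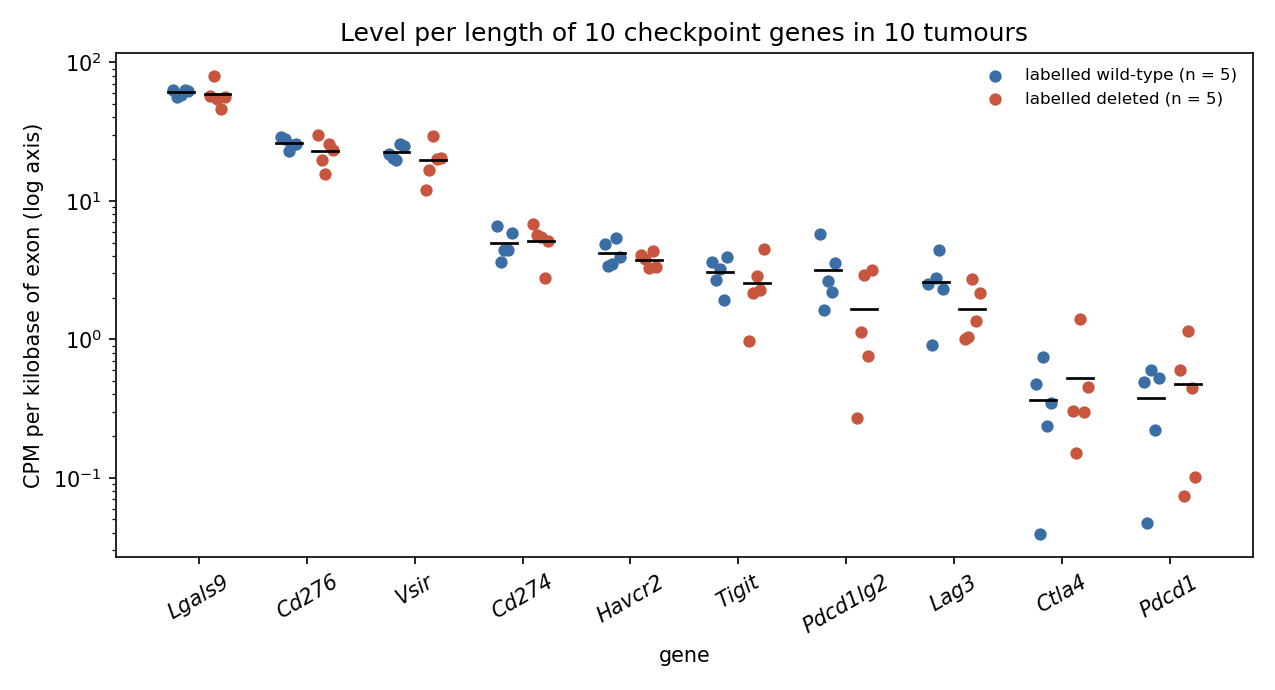
CPM per kilobase of exon on a log axis for each gene; every point is 1 tumour, blue labelled wild-type and red labelled deleted, and black lines are group means (n = 5). Lgals9, Cd276 and Vsir lie above the other 7 genes in every tumour, and Ctla4 and Pdcd1 have the lowest means.

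Between the groups, no checkpoint gene passed the test. Of the 10 genes, 9 had enough counts to be tested (Ctla4 did not), and edgeR's quasi-likelihood test called 0 of the 9 at an adjusted p under 0.05, and 0% of all 16565 genes tested. DESeq2 and limma-voom also called 0 of these genes, and over all genes they called 7 and 0. At an unadjusted p under 0.05 the count was 0 of 9, against 5.93% of all genes (983 genes; 3.47% higher and 2.46% lower in labelled-deleted tumours). The log2 fold change of labelled deleted over wild-type was below 0 for 7 of the 9 and above 0 for 2, against 44.9% and 55.1% of all genes, with a median of -0.19 against 0.0266 over all genes tested. In 0 of the 9 genes were the groups separate, against 0.930% of all genes. With the title number as a block, a fit that rests on the 8 tumours sharing a number, 0 of the 9 were called and 4 of the 9 were above 0. Pdcd1lg2 was then at -0.33, Lag3 at -0.34, Pdcd1 at -0.14, Tigit at 0.0391, Vsir at 0.00473 and Cd276 at -0.44 (edgeR unadjusted p = 0.0136, not called after adjustment). Cd276 and Havcr2 were lower in the labelled-deleted tumour within each of the 3 shared numbers 36, 38 and 40, with log2 CPM differences of -0.55, -0.69 and -0.12 for Cd276 and -0.36, -0.0751 and -0.46 for Havcr2. The signs of the other checkpoint genes differed between these numbers. Each number holds 1 labelled-deleted tumour, and the share of all genes with such agreement was not computed. Intervals without the block were narrow for the abundant genes and wide for the rare ones: the 95% interval of Lgals9 ran from -0.33 to 0.24 and that of Pdcd1 from -1.35 to 1.97.

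**Figure D2:**
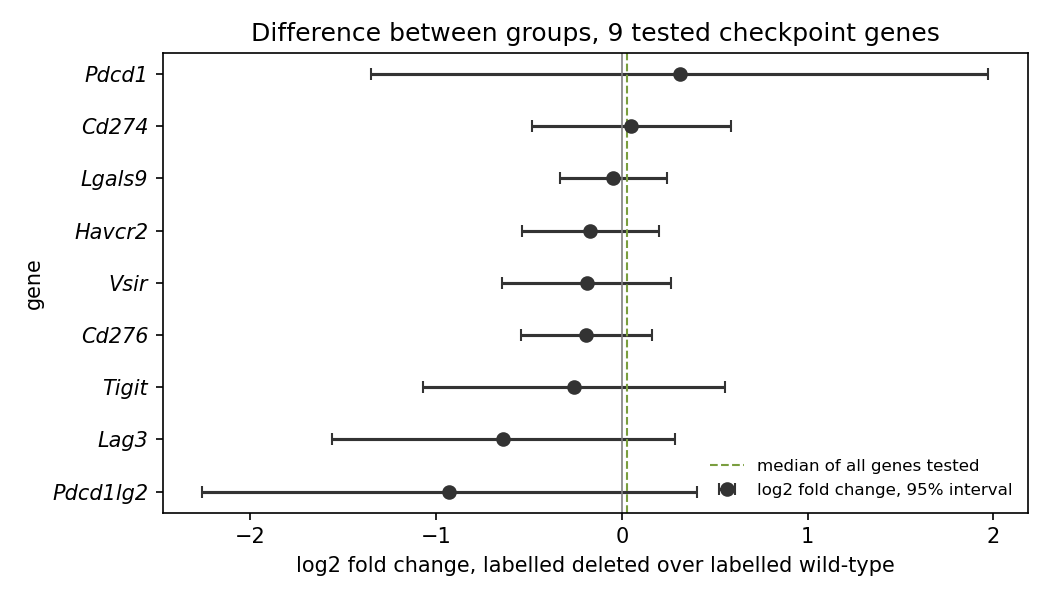
Points are the log2 fold change of labelled-deleted over wild-type tumours (5 against 5) for the 9 tested genes, bars are 95% intervals and the dashed line is the median of all genes tested. Every interval includes 0, from Pdcd1lg2 at -0.93 to Pdcd1 at 0.31.

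Among the ligands, Cd274 did not separate the groups. The wild-type tumours held 23.7, 13.03, 16.0, 16.0 and 21.4 CPM, and those labelled deleted 24.6, 20.4, 19.7, 10.1 and 18.5 CPM. The highest and the lowest value both came from tumours labelled deleted, tumour 1 and tumour 4. The means were 18.0 ± 4.36 and 18.7 ± 5.33 CPM (SD, n = 5), and the log2 fold change was 0.051 (SE 0.24, edgeR adjusted p = 0.960). Its 95% interval, from -0.48 to 0.58, is what these 10 tumours allow. The sign turned without labelled-deleted tumour 1 (-0.0701) and without tumours 1 and 2 (-0.17). Of 3622 exonic bases of Cd274, 511 are shared with an antisense gene, and reads of the 2 cannot be told apart unless strand was used in counting.

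Pdcd1lg2, the other PD-1 ligand, had the largest log2 fold change of the 9 tested. Its values were 11.2, 3.19, 5.20, 4.33 and 6.96 CPM in wild-type tumours and 0.534, 2.1997, 5.75, 1.49 and 6.25 CPM in those labelled deleted. Labelled-deleted tumours 1, 2 and 4 lay below all wild-type tumours, while tumours 3 and 5 lay within their range. The log2 fold change was -0.93 (SE 0.60, edgeR unadjusted p = 0.152, adjusted p = 0.759), and permuting the labels in every way (exact, two-sided, on log2 CPM) gave p = 0.111. The fold change shrank to -0.66 in a fit that lacked labelled-deleted tumour 1, to -0.47 when tumour 2 was left out as well, and -0.60 in the fit that left out wild-type tumour 1, the highest. Within the title numbers 36, 38 and 40 the difference in log2 CPM was -2.28, 0.48 and 0.18, with 1 labelled-deleted tumour in each. Labelled-deleted tumour 1 rests on 6 counts (95% Poisson interval 2.202 to 13.1, counting error only).

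The PD-1 ligands thus parted in single tumours. Per length, Pdcd1lg2 amounted to 87.7%, 45.2%, 60.0%, 50.1% and 60.1% of Cd274 in the wild-type tumours, and to 4.00%, 19.9%, 53.9%, 27.4% and 62.2% in those labelled deleted. Labelled-deleted tumour 1 had the most Cd274 and the least Pdcd1lg2 of all 10. This ratio was chosen after its values were seen and has no test.

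Lgals9 and Cd276, the most abundant ligands, varied little, with coefficients of variation of 14.5% and 17.7% over the 10 tumours. Lgals9 ran from 120.9 to 134.8 CPM in wild-type tumours, with a coefficient of variation of 4.79%, and from 98.9 to 170.7 CPM in those labelled deleted, with one of 21.3%. The highest of these, 170.7 CPM, came from labelled-deleted tumour 2, which carried the intestinal markers. The log2 fold change of Lgals9 was -0.0455 (SE 0.13). Without labelled-deleted tumours 1 and 2 it was -0.22 (edgeR unadjusted p = 0.0327, adjusted p = 0.998). Cd276 ran from 83.9 to 105.4 CPM in wild-type tumours and from 57.3 to 109.9 CPM in those labelled deleted. Its log2 fold change was -0.19 (SE 0.16, edgeR adjusted p = 0.781), and -0.31 without labelled-deleted tumour 1 (unadjusted p = 0.0516). For Cd276, the span of the labelled-deleted tumours enclosed that of the wild-type tumours. Of 3658 exonic bases of Cd276, 416 are shared with Gm10657 on the other strand.

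**Figure D3:**
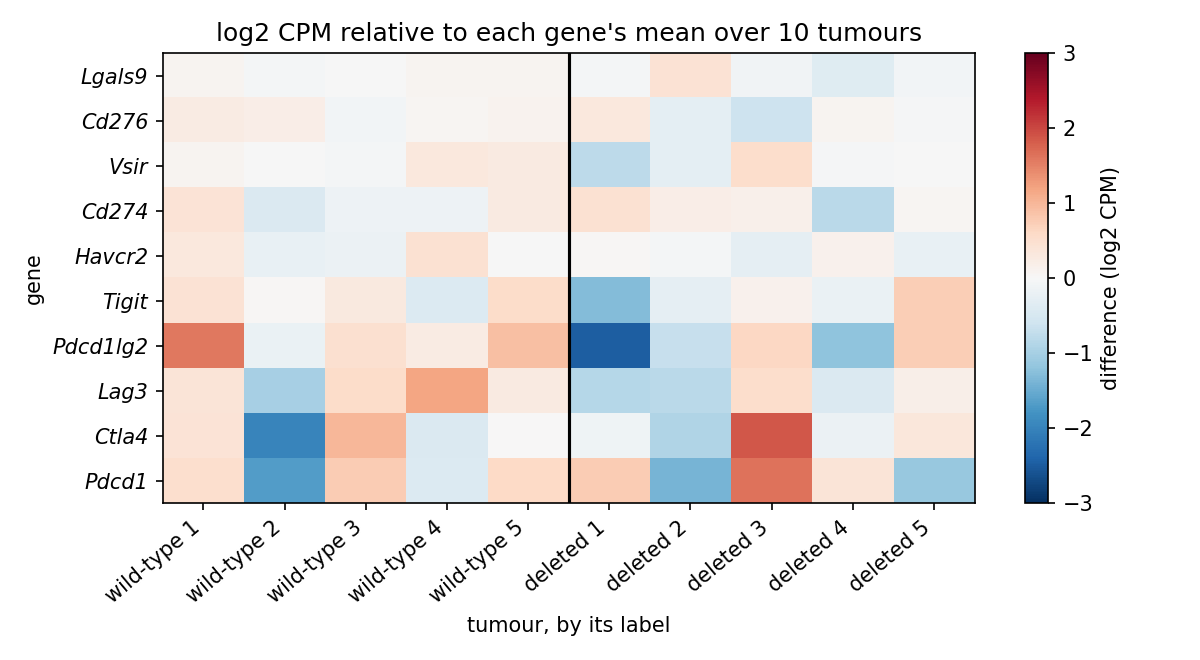
Colour gives log2 CPM minus the gene's mean over the 10 tumours, with genes in rows by falling level per length and tumours in columns (left of the line wild-type, right of it labelled deleted). Labelled-deleted tumour 1 is lowest for Pdcd1lg2, Tigit and Vsir and highest for Cd274 and Cd276, and labelled-deleted tumour 3 is highest for Vsir, Ctla4 and Pdcd1.

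Transcripts of the T cell receptors PD-1 and CTLA-4 were rare, with 1 to 27 counts of Pdcd1 and 1 to 40 of Ctla4 in a library. Pdcd1 had 12, 1, 14, 7 and 10 counts in wild-type tumours (0.943, 0.0911, 1.16, 0.427 and 1.01 CPM) and 13, 2, 27, 16 and 3 in those labelled deleted (1.16, 0.142, 2.22, 0.854 and 0.197 CPM). Labelled-deleted tumour 3 was highest and wild-type tumour 2 lowest, and the groups overlapped. The log2 fold change of Pdcd1 was 0.31 (SE 0.75, edgeR adjusted p = 0.923), with -0.32 when labelled-deleted tumour 3 was left out and 0.56 when tumours 1 and 2 were. At 1 count, as in wild-type tumour 2, the 95% Poisson interval is 0.0253 to 5.57 counts.

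Ctla4 had the same highest and lowest tumours as Pdcd1. It held 1.10, 0.0911, 1.73, 0.549 and 0.807 CPM in wild-type tumours and 0.712, 0.355, 3.28, 0.694 and 1.05 CPM in those labelled deleted. The value of labelled-deleted tumour 3, from 40 counts, was the highest of the 10. The two-sided exact permutation p on log2 CPM was 0.595, where 0.00794 is the smallest that 5 against 5 tumours can give. DESeq2, which fits it without the filter on low counts, gave a log2 fold change of 0.50 (SE 0.73).

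Lag3 was highest in wild-type tumour 4. The wild-type tumours held 5.27, 1.91, 5.86, 9.28 and 4.84 CPM and those labelled deleted 2.14, 2.1997, 5.75, 2.88 and 4.54 CPM. The lowest value of all was also wild-type, in tumour 2, so that the labelled-deleted values lay within the wild-type range. The log2 fold change was -0.64 (SE 0.42, edgeR unadjusted p = 0.155, adjusted p = 0.759). It moved to -0.36 when wild-type tumour 4 was left out, and to -0.32 when labelled-deleted tumours 1 and 2 were. It grew to -0.86 (unadjusted p = 0.0372, edgeR adjusted p = 0.683) when wild-type tumour 2 was left out, and to -0.90 when labelled-deleted tumour 3 was.

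Lag3 and the genes of CD3, the invariant part of the T cell receptor, did not have the same order over the tumours. Wild-type tumour 4 had 152 counts of Lag3 and 0 of Cd3e, which allows up to 3 counts, or 0.183 CPM, of Cd3e. The other T cell markers in that library ran from 3 counts of Cd8b1, 6 of Cd3g and 8 of Cd3d to 32 of Cd4, 77.0 of Trbc1 and 123 of Trbc2, the last 2 being constant regions of the T cell receptor beta chain. Labelled-deleted tumour 3, with 105 counts of Cd3e, had 70 of Lag3. In labelled-deleted tumour 1, 13 counts of Pdcd1 stood beside 1 of Cd3e, 217 of the granzyme gene Gzmb and 218 of the perforin gene Prf1. The rest of the list of NK and cytotoxic cells was low in that tumour, with 22 counts of Nkg7, 15 of Gzma, 12 of Klrb1c and 8 of Ncr1. CD3 and beta chain parted there: Cd3d had 1 count, Cd3g 6 and the alpha chain gene Trac 2, while Trbc1 had 127 and Trbc2 507, at 11.3 and 45.1 CPM. These genes were picked after their values were seen, from the marker lists of T cells and cytotoxic cells.

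**Figure D4:**
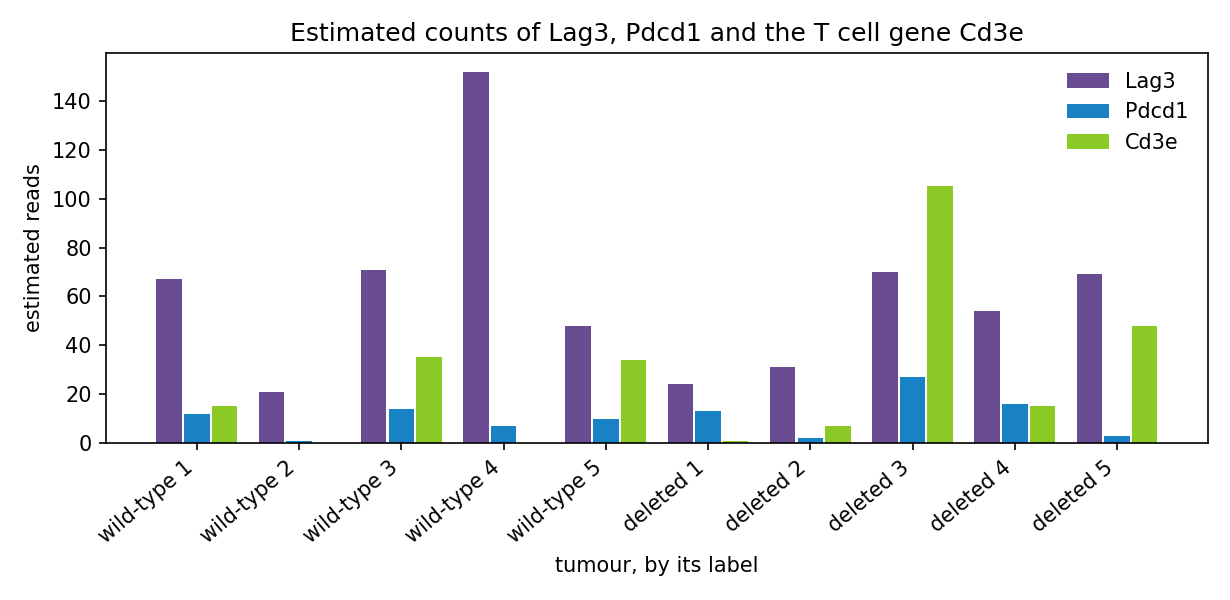
Bars are estimated read counts per tumour, from 0, for Lag3, Pdcd1 and the T cell gene Cd3e; libraries differ in depth. Wild-type tumour 4 has 152 counts of Lag3 and 0 of Cd3e, and labelled-deleted tumour 3 has 70 of Lag3 and 105 of Cd3e.

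Tigit ran from 1.77 to 3.63 CPM in wild-type tumours, and from 0.890 to 4.14 CPM in those labelled deleted. Both the lowest tumour, labelled-deleted 1, and the highest, labelled-deleted 5, were of one group. The log2 fold change was -0.26 (SE 0.37, edgeR adjusted p = 0.864). It was -0.0569 without labelled-deleted tumour 1, 0.0643 without tumours 1 and 2, and -0.57 without labelled-deleted tumour 5.

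Havcr2, which marks exhausted T cells but is also made by macrophages and dendritic cells, ran from 9.20 to 14.6 CPM in wild-type tumours and from 8.87 to 11.7 CPM in those labelled deleted. Its log2 fold change was -0.17 (SE 0.17, edgeR adjusted p = 0.804). Wild-type tumour 4, the highest for Lag3, was also the highest for Havcr2, and without it the log2 fold change of Havcr2 was -0.0652.

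Vsir held 110.0, 101.9, 98.5, 129.1 and 123.9 CPM in wild-type tumours and 59.9, 84.2, 147.7, 100.1 and 102.8 CPM in those labelled deleted. The labelled-deleted tumours took in both extremes, tumour 1 at the bottom and tumour 3 at the top. Its log2 fold change was -0.19 (SE 0.20, edgeR adjusted p = 0.818). It moved to -0.054 when tumour 1 was left out, and to -0.39 (edgeR unadjusted p = 0.0410, adjusted p = 0.507) when tumour 3 was.

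Cell type markers also differed between the tumours, and in bulk tissue fewer cells of a type and less RNA per cell cannot be told apart. All 9 macrophage markers had a log2 fold change below 0 (median -0.57), with summed levels of 3314 to 5687 CPM in wild-type tumours and 1664 to 4547 CPM in those labelled deleted. Without labelled-deleted tumour 1, 8 of the 9 were below 0 (median -0.37). All 12 T cell markers had one above 0 (median 0.83, and 1.065 without labelled-deleted tumour 1), summed at 16.2 to 50.5 CPM and 22.6 to 147.6 CPM. The top of that last range was labelled-deleted tumour 3, while labelled-deleted tumours 1, 2, 4 and 5 held 60.9, 22.6, 24.3 and 59.3 CPM. Cd3e stood at 8.62 CPM in tumour 3 and at 0.0890 to 3.16 CPM in the other labelled-deleted tumours. In wild-type tumours Cd3e ran from 0 to 3.43 CPM. The median over the T cell markers without labelled-deleted tumour 3 was not computed. Cd3e, Cd5 and Cd8b1 were at 0 in at least 1 library. Of 6 tested dendritic cell markers (8 in the list), 4 were below 0, summed at 18.3 to 41.4 CPM and 5.69 to 64.6 CPM, with Siglech at 0 in some libraries, and 3 of 6 were below 0 without labelled-deleted tumour 1. None of these markers passed the edgeR test over all genes. With the level of 6 leukocyte markers as a covariate, Pdcd1lg2 moved from -0.93 to -0.46, Lag3 from -0.64 to -0.20, Vsir from -0.19 to -0.0241 and Cd276 from -0.19 to -0.35. Cd276 then had an unadjusted p of 0.0323 in edgeR and did not pass after adjustment.

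Each gene was set against the markers of a cell type or response known for it, over all 10 tumours, in 10 relations with Benjamini-Hochberg adjustment. Gene and markers come from the same library and share its cell composition. Vsir followed the 9 macrophage markers: Pearson's r was 0.909 (permutation p = 0.00031, adjusted 0.0025) and Spearman's rho 0.915 (permutation p = 0.00048, adjusted 0.0048). Without the outermost tumours, wild-type 4 and labelled-deleted 1, r was 0.792 (exact permutation p = 0.0171). Ctla4 followed the 12 T cell markers, with r = 0.884 (permutation p = 0.0005, adjusted 0.0025) and rho = 0.855 (permutation p = 0.00264, adjusted 0.0132). Without wild-type tumour 2 and labelled-deleted tumour 3, r was 0.751 (exact permutation p = 0.0288).

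For Pdcd1lg2 and 6 dendritic cell markers r was 0.839 (permutation p = 0.00313, adjusted 0.0104) and rho 0.745 (permutation p = 0.0171, adjusted 0.057). Without labelled-deleted tumours 1 and 2 r was 0.623 (exact permutation p = 0.0963), and without tumour 1 alone 0.686 (exact permutation p = 0.0413), both unadjusted. The relation thus leans in part on those tumours. Cd274 against 16 genes of the interferon list had r = 0.701 (permutation p = 0.029, adjusted 0.0725) and rho = 0.624 (permutation p = 0.0599, adjusted 0.12), which missed the threshold after adjustment. These 16 include the receptor and kinase genes Ifngr1, Ifngr2, Jak1 and Jak2 beside response genes. Without wild-type tumour 2 and labelled-deleted tumour 1, r of Cd274 was 0.694 (exact permutation p = 0.0744). Leaving out labelled-deleted tumour 1 alone gave 0.690 (exact permutation p = 0.0432, unadjusted).

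The remaining 6 relations did not pass after adjustment. Against the T cell markers r was 0.568 for Pdcd1, 0.537 for Lag3 and 0.616 for Tigit (adjusted permutation p of 0.126, 0.134 and 0.0918). Against the macrophage markers r was 0.289 for Havcr2 and 0.0219 for Lgals9 (adjusted permutation p of 0.462 and 0.954). Cd276 against 6 fibroblast markers had r = -0.676 (adjusted permutation p = 0.0853), and 0.00513 without labelled-deleted tumours 1 and 3. Single tumours weighed on the T cell relations. Without the outermost tumours, wild-type 2 and labelled-deleted 3, r was 0.905 for Tigit (exact permutation p = 0.000794), 0.0865 for Pdcd1 and 0.366 for Lag3. Without labelled-deleted tumour 1 it was 0.729 for Pdcd1 (exact permutation p = 0.0266), 0.566 for Tigit and 0.456 for Lag3. For Havcr2 and Lgals9, r without the outermost tumours was 0.171 and -0.154. Spearman's rho of these 6 lay between -0.588 for Cd276 and 0.721 for Tigit, and the lowest adjusted permutation p among them was 0.061, for Tigit. The labels name no batch, and no title number is shared by more than 3 tumours, too few for a correlation within it.

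**Figure D5:**
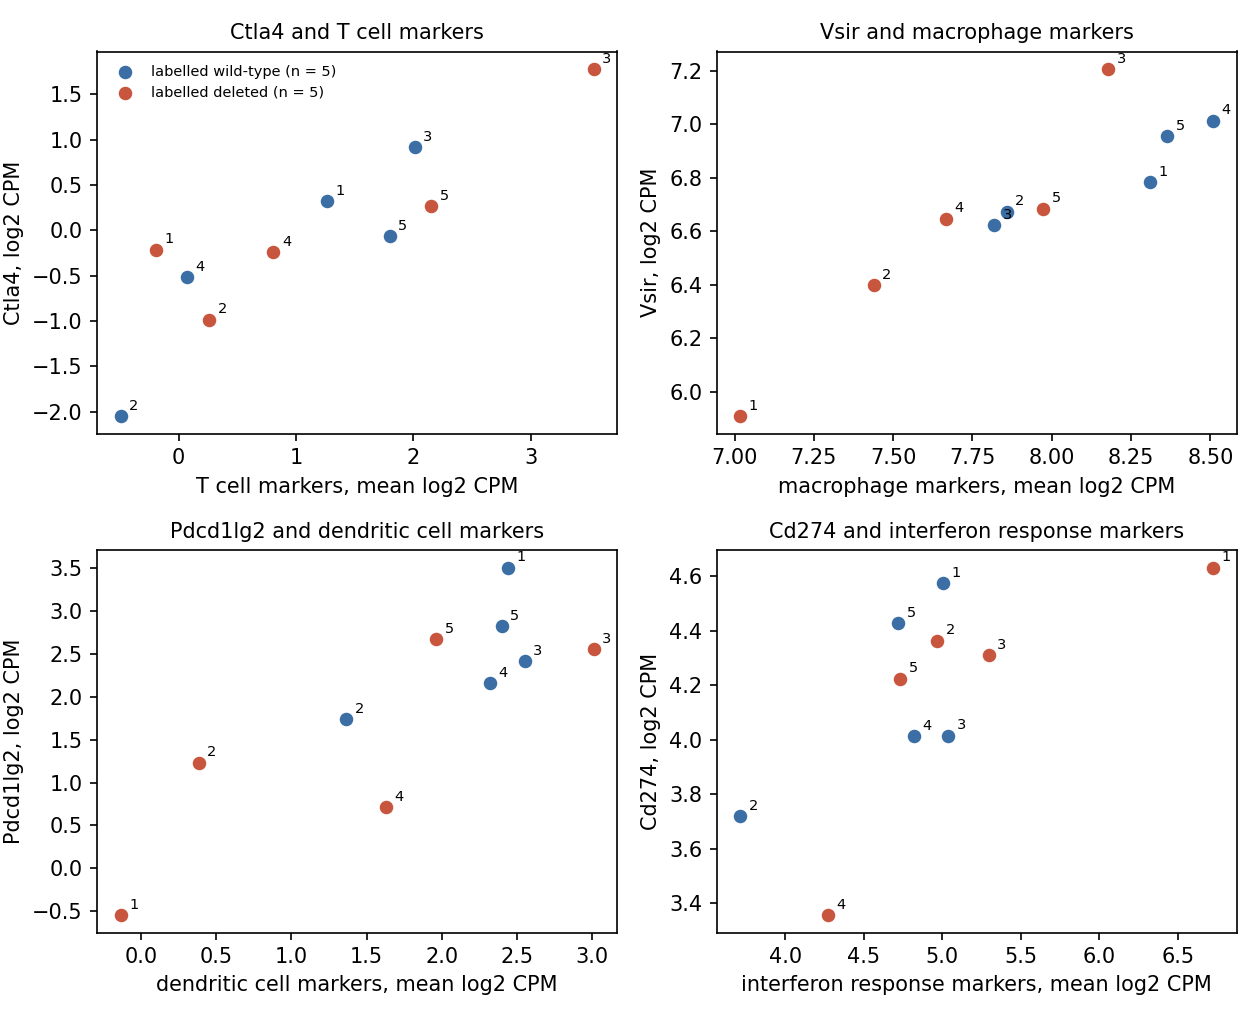
Each point is 1 tumour (blue labelled wild-type, red labelled deleted, numbered by replicate), with log2 CPM of a gene against the mean log2 CPM of its markers. Vsir and Ctla4 climb with their markers over the whole range, while labelled-deleted tumour 1 lies alone at the low end for Pdcd1lg2 and at the high end for Cd274.

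The genes whose log2 CPM ran most like each checkpoint gene over the 10 tumours are given as a description. For Pdcd1lg2 they were Pilrb1 (r = 0.992) and Fgr (r = 0.981), which encode a myeloid receptor and a myeloid tyrosine kinase, and for Vsir Zfp652 (r = 0.976) and Fcgrt (r = 0.964), the neonatal Fc receptor. Lag3 ran most like Cdh5 (r = 0.947), the endothelial VE-cadherin, and Runx3 (r = 0.943), a transcription factor of cytotoxic lymphocytes. Tigit was most like Ccdc28a (r = 0.948) and Aifm3 (r = 0.946), and Pdcd1 most like Glipr2 (r = 0.911) and Mef2c (r = 0.892). For Cd274 they were Tpm3-rs7 (r = 0.931) and Idnk (r = 0.921), for Cd276 Pak1 (r = 0.930) and Commd3 (r = 0.929), for Lgals9 Mvp (r = 0.927) and Slc35a3 (r = 0.926), and for Havcr2 Cript (r = 0.864) and Slc35f6 (r = 0.836). With 10 tumours and 16565 genes to choose from, a high r is easily met.

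Partners of these receptors were measured in the same libraries. CD80 and CD86, the ligands that CTLA-4 and CD28 share, came from Cd80 at 9.45 ± 4.74 CPM in wild-type and 5.76 ± 3.72 CPM in labelled-deleted tumours and from Cd86 at 18.2 ± 8.11 and 11.7 ± 5.24 CPM (SD, n = 5). Their log2 fold changes were -0.71 (SE 0.50) and -0.64 (SE 0.42). Both were lowest in labelled-deleted tumour 1, at 1.87 and 3.65 CPM, where Pdcd1lg2 was lowest too, and without that tumour the log2 fold changes were -0.50 and -0.41. Of the TIGIT ligands, Nectin2 had a log2 fold change of -0.40 (SE 0.29), Pvr of 0.077 (SE 0.17) and Nectin3 of 0.58 (SE 0.24, edgeR unadjusted p = 0.0377, adjusted p = 0.759). Nectin2 stood at 39.6 CPM in labelled-deleted tumour 1 and between 114.6 and 178.2 CPM in the other 9, and without that tumour its log2 fold change was -0.19. Nectin3 was at 0.44 without labelled-deleted tumour 1 and at 0.20 without labelled-deleted tumours 1 and 2.

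CD28 and the receptors that compete with or resemble TIGIT were as rare as PD-1. Cd28 averaged 0.946 ± 0.973 CPM in wild-type and 1.15 ± 0.917 CPM in labelled-deleted tumours, and Cd96 0.636 ± 0.593 and 1.16 ± 0.832 CPM (SD, n = 5). Cd226, Icos and the LAG-3 ligand gene Fgl1 had too few counts to be tested. Among other reported ligands of TIM-3, Hmgb1 was at 0.21 (SE 0.19), or -0.00935 without labelled-deleted tumour 1, and Ceacam1 at -1.001 (SE 0.45, edgeR unadjusted p = 0.0478, adjusted p = 0.759), with 16.6 CPM in labelled-deleted tumour 1 and 35.4 to 143.7 CPM elsewhere. Without that tumour Ceacam1 was at -0.78 (edgeR unadjusted p = 0.0727). It was at -1.08 without labelled-deleted tumours 1 and 2 (edgeR unadjusted p = 0.0264, adjusted p = 0.998).

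In a wider list of 47 co-inhibitory and co-stimulatory genes, 38 were tested, and 14 had a log2 fold change above 0 and 24 one below 0, with a median of -0.21. Of these 38, 0 passed in edgeR and 7 had an unadjusted p under 0.05, where 5.93% of all genes did. Without labelled-deleted tumour 1, 19 of 40 tested were above 0 and 21 below, the median was -0.0266 and 4 had such a p. Over all genes, 912 of 16830 had one without that tumour. The smallest p belonged to Tnfsf4 (OX40 ligand), with 1.41 to 2.50 CPM in wild-type tumours and 0.712 to 1.40 CPM in those labelled deleted. These ranges did not overlap but nearly met, and the groups were separate in 0.930% of all genes tested. The log2 fold change of Tnfsf4 was -0.82 (SE 0.24, edgeR unadjusted p = 0.00644, adjusted p = 0.759). Vtcn1 (B7-H4, a relative of B7-H3 found on epithelium) was at -0.69 (SE 0.24), Lgals3 (galectin-3, another reported LAG-3 ligand) at 0.43 (SE 0.15) and Cd200r1, an inhibitory receptor of myeloid cells, at -0.57 (SE 0.21), each with an edgeR adjusted p of 0.759. Without labelled-deleted tumour 1, Vtcn1 was at -0.52 and Lgals3 at 0.44. Without labelled-deleted tumours 1 and 2, Vtcn1 was at -0.42 and Lgals3 at 0.29. The epithelial markers, which moved beside Vtcn1, were below 0 in 5 of 5 (median -0.43), and their part in it was not tested.

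Of 17 interferon genes, 16 were tested, 12 were above 0 and 4 below, with a median of 0.64, where 55.1% of all genes were above 0. Those below 0 were the chemokine gene Cxcl9, the receptor gene Ifngr1 and the kinase genes Jak1 and Jak2. The receptor gene Ifngr2 was above 0. In edgeR 0 of the 16 passed and 6 had an unadjusted p under 0.05, where 5.93% of all genes did. Without labelled-deleted tumour 1, 10 were above 0 and 6 below, the median was 0.0284 and 1 had such a p. Over all genes, 912 of 16830 then had one. The lead of labelled-deleted tumour 1 was large: Ifit1, an interferon-induced antiviral gene, stood at 265 CPM there and between 2.55 and 21.5 CPM in the other 9, and Irf7, a transcription factor of the response, at 451 CPM against 5.37 to 56.7 CPM. Ifit3, a relative of Ifit1, stood at 421 CPM against 2.91 to 27.1 CPM, and the chemokine gene Cxcl10 at 60.7 CPM against 2.00 to 11.5 CPM. Log2 fold changes with and without that tumour were 3.02 and 0.74 for Ifit1, 3.17 and 0.56 for Ifit3, 1.91 and 0.59 for Cxcl10, and 2.28 and 0.55 for Irf7. Cd274 was at 24.6 CPM in that tumour, and at 23.7 CPM in wild-type tumour 1, which had 11.7 CPM of Ifit1. Ifng itself had too few counts to be tested.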

How the data were processed

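Polyadenylated RNA of 10 tumours was sequenced, and each tumour was put in its group by its title. The count column of labelled-deleted tumour 1 lacks 1 number of that title. The authors deposited estimated counts per gene (7.96% of the values not whole) and, per tumour, normalized log2 values of 25407 genes by a transformation that is not named. The submitters' processing notes list RSEM 1.3.3, HISAT2 2.2.1, DESeq2 1.32.0, FastQC 0.11.9 and bcl2fastq 2.0, and build mm10. Annotation release and strand setting: not given in the sources used here.

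Estimated counts were rounded, filtered with filterByExpr (minimum count 10), scaled with TMM factors and compared with edgeR 4.0.16 (quasi-likelihood F test, robust, Benjamini-Hochberg over 16565 genes, threshold 0.05). Standard errors (SE) of log2 fold changes come from the F statistic. Log2 CPM has a prior count of 2. Kilobases are the union of GENCODE M21 exons. Correlation tests used 100000 permutations for all 10 tumours and exact enumeration for fewer. R was 4.3.3, limma 3.58.1, DESeq2 1.42.0 and Python 3.11.15. The pipeline was tested on simulated data. Within groups, all pairs of libraries differed beyond sampling noise (lowest chi-square per degree of freedom 25.5). The lowest value between groups was 13.2, so the most alike pair of libraries came from different groups.

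The genes and lists were chosen with earlier results of these data known. Named are all 10 genes, their partners, the 4 smallest p in each of the wider and interferon lists, and the 2 genes most like each tested gene, unnamed gene models left out. Alternatives were other scalings, filters, dispersions and tools, a replicate block, a leukocyte covariate, the deposited log2 values, and leaving out libraries. Relations and lists without labelled-deleted tumour 1, and a block on the number in the titles, were added after seeing the data.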

Additional observations from a re-analysis of the deposited data

Results flagged for a closer look

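Ctla4 in labelled-deleted tumour 3, at 3.28 CPM, stood apart from the other 4 tumours of its group, which held 0.355 to 1.05 CPM: its gap to the next value was over 0.71 of the range of the group. It was the 1 such case among 20 groups of 5 values examined (10 genes in each of the 2 groups), and chance gives about 1 in 20. The same tumour held the highest summed T cell markers, 147.6 CPM, and the part of these in the Ctla4 value was not tested.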

How the results depend on the processing

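In all alternatives run, 0 checkpoint genes were called. Over all genes 0 were called in every alternative except DESeq2, which called 7 of 28869 genes with an adjusted p. The count of checkpoint genes with a log2 fold change above 0, 2 of 9, was 1 with limma-voom, 1 with a minimum count of 30 (8 tested, Pdcd1 left out) and 4 of 10 without labelled-deleted tumours 1 and 2, and ran from 1 to 4 when single libraries were left out; Ctla4 entered some of these fits. Cd274 was at -0.0216 with limma-voom, -0.17 without labelled-deleted tumours 1 and 2, and from -0.0701 to 0.20 when single libraries were left out. Without labelled-deleted tumours 1 and 2, Tigit was at 0.0643 and Vsir at 0.0491. When single libraries were left out, Pdcd1 ran from -0.32 to 0.59 and Lgals9 from -0.18 to 0.018. Pdcd1lg2 was below 0 in every alternative, from -1.31 without labelled-deleted tumour 5 to -0.33 with the title number as a block. With that block, chosen after seeing the data, 0 genes were called (638 at an unadjusted p under 0.05), 4 of the 9 checkpoint genes were above 0, and Pdcd1 turned to -0.14, Tigit to 0.0391, Lgals9 to 0.00853 and Vsir to 0.00473; the cause of these turns was not tested. The relation of Lgals9 to macrophage markers turned to -0.154 without the 2 outermost tumours and to -0.0559 without labelled-deleted tumour 1, and that of Cd276 to fibroblast markers to 0.00513 without the 2 outermost. With the replicate block 0 genes were called, 0 of them checkpoint genes, 2 of the 9 were above 0, and Pdcd1lg2 was at -1.09. Deviations of same-numbered tumours correlated at 0.0687, 0.107, 0.317, -0.0157 and 0.387. At replicate numbers 3 and 5 alone did both tumours correlate best with their own number, and these pairs share the title numbers 38 and 40. Wild-type tumour 1 and labelled-deleted tumour 2, which share the title number 36, correlated best with each other. Wild-type tumour 4 correlated best with labelled-deleted tumour 5, also of number 40, but wild-type tumour 2, of number 38, with labelled-deleted tumour 4. The replicate numbers thus do not pair the tumours throughout, and likeness within title numbers was not tested. Depth limits Pdcd1 and Ctla4, with at most 27 and 40 counts in a library.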

Other observations

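Genes of other inhibitory routes, already counted in the wider list above, are given here by name. Nt5e and Entpd1, which encode the enzymes that make adenosine outside cells, averaged 142 ± 59.5 and 67.2 ± 17.6 CPM in wild-type tumours and 87.2 ± 41.1 and 53.9 ± 18.5 CPM in the labelled-deleted tumours (SD, n = 5), with log2 fold changes of -0.70 (SE 0.34) and -0.32 (SE 0.26). Cd47, the signal that restrains phagocytosis, and its macrophage receptor gene Sirpa stood at 0.22 (SE 0.17) and -0.22 (SE 0.18). Without labelled-deleted tumour 1, Entpd1 was at -0.19, Cd47 at 0.0388 and Sirpa at -0.0915. H2-T23, the class I gene whose product is bound by the inhibitory receptor that Klrc1 encodes, was at 0.65 (SE 0.36), or 0.18 without labelled-deleted tumour 1, and Klrc1 at 0.26 (SE 0.44), or 0.0749 without that tumour. Cmtm6, which encodes a protein that keeps PD-L1 at the cell surface, was at -0.34 (SE 0.15, edgeR unadjusted p = 0.0429). Without labelled-deleted tumour 1, Cmtm6 was at -0.23 (edgeR unadjusted p = 0.0517). None of these passed the edgeR test over all genes. They were chosen from the wider list after their values were seen. Foxp3, the regulatory T cell factor, was at 4.497 ± 1.19 and 3.87 ± 1.29 CPM (SD, n = 5), and wild-type tumour 4, with 0 counts of Cd3e, held 49.9 estimated counts of Foxp3.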
